A study of Mus musculus with 11 samples.

Results

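The 6 genes described here, Smpdl3a, Tor1aip1, G3bp1, Rgs3, Mbnl1 and H13, were chosen by their measured levels from a table of 35814 gene symbols, 6 of 35814 in all, because these levels did not overlap between the libraries labelled CD4NIK and those labelled CD4IKK1 and varied little within either group. That separation is how they were found, so in what follows it is described and not tested. RNA was sequenced from renal CD4+ T cells on day 2 after ischemia-reperfusion injury (IRI), in which both renal pedicles had been clamped for 45 min. All mice were males on the C57BL/6 background, 8 to 12 weeks old, and all groups carried a Cre recombinase driven by the CD4 promoter. The 3 CD4cre libraries came from control mice with the WT genotype, the 5 CD4IKK1 libraries from mice labelled IKK1 knockout (floxed Chuk) and the 3 CD4NIK libraries from mice labelled NIK knockout (floxed Map3k14), with 1 library per mouse. IKK1 and NIK are the kinases of the non-canonical NFκB pathway, in which NIK phosphorylates IKK1. The CD4 promoter is active from the thymus on, so the recombination is not confined to the injured kidney or to mature CD4+ T cells.

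The 6 genes share no pathway. Smpdl3a encodes a phosphodiesterase of the acid sphingomyelinase family that is secreted or found in lysosomes and that hydrolyses nucleotides and not sphingomyelin. Tor1aip1 encodes LAP1, a protein of the inner nuclear membrane that binds lamins and switches on the torsin ATPases. G3bp1 encodes an RNA-binding protein around which stress granules assemble when translation stops. Rgs3 encodes a GTPase-activating protein that shortens signalling by G proteins of the Gi and Gq classes, which in T cells lie downstream of chemokine receptors. Mbnl1 encodes a muscleblind splicing regulator, and H13 encodes signal peptide peptidase, an aspartyl protease of the endoplasmic reticulum that cuts leftover signal peptides within the membrane.

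The genes lie on 6 different chromosomes of GRCm39. Smpdl3a is at chr10:57670431-57688374, Tor1aip1 at chr1:155880041-155912440 on the minus strand, G3bp1 at chr11:55360166-55395670, Rgs3 at chr4:62478084-62622238, Mbnl1 at chr3:60380102-60537183 and H13 at chr2:152511306-152550590. Tor1aip1 overlaps the start of Tor1aip2 on the opposite strand, and H13 contains Mcts2 on its own strand, so reads of these neighbours can be hard to tell apart. To see whether genes that move together share a start region, the 250 bases before the start of each canonical transcript were searched on both strands for 6 motifs. These were a κB consensus, the GC box with the letters GGGCGG, the CCAAT box with the letters of its name, and the TATA box with the letters TATAAA. The ETS motif was searched as CCGGAAGT and the cyclic AMP response element (CRE) as TGACGTCA. The stretches of these windows that overlap no annotated exon are shown for the 4 genes in which they are longest. They are given 5′ to 3′ on the strand of the gene, and capitals mark the matches, none of which overlap each other.
Rgs3: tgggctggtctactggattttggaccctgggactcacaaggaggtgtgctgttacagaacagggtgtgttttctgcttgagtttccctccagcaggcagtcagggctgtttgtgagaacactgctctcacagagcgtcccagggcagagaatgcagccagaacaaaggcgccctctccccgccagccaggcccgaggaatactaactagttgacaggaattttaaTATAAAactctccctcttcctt
G3bp1: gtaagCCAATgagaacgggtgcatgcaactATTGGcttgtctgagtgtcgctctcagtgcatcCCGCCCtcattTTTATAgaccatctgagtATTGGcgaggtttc
H13: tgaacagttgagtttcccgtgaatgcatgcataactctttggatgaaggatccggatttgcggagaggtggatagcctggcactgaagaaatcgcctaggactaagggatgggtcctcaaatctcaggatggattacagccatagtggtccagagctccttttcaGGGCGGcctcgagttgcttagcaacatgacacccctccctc
Tor1aip1: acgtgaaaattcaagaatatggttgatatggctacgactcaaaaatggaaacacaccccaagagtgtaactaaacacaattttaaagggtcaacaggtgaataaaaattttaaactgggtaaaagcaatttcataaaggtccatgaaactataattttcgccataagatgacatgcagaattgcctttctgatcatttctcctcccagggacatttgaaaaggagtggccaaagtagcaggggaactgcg
The stretches are chr4:62537507-62537753 for Rgs3, chr11:55360257-55360362 for G3bp1, chr2:152511100-152511305 for H13 and chr1:155912441-155912690 for Tor1aip1. A TATA box stood 25 bases before the start in Rgs3, whose canonical start lies inside the annotated gene. G3bp1 held 4 CCAAT boxes, 2 GC boxes and 1 TATA box over its whole window, H13 and Mbnl1 held 1 GC box each, and Smpdl3a and Tor1aip1 held none of the 6 motifs. The κB consensus was in 0 of the 6 windows and in 7.63% of the windows of 21757 genes. A CCAAT box was in 36.5% of all windows, a GC box in 36.3%, a TATA box in 11.9%, an ETS motif in 2.64% and a CRE in 1.7%. The windows also differed in base composition, from 38% GC in Tor1aip1 to 65.2% in Mbnl1, with a median of 53.2% over all genes. No motif was therefore shared by all 6 windows, and these are letter matches and not measured sites.

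The libraries held between 15751632 and 25737046 estimated counts. A level is given below in CPM, the count scaled to the TMM-adjusted size of the library, where 3 counts correspond to 0.117 to 0.190 CPM. The groups differed in T cell transcripts. The summed level of 15 T cell markers was 1602 to 3058 CPM in CD4cre, 15.4 to 1369 CPM in CD4IKK1 and 8168 to 12334.5 CPM in CD4NIK libraries, and counts of Trac, the T cell receptor alpha constant gene, were 3515 to 10190, 1 to 2408 and 23227 to 40733. CD4IKK1 replicates 1 and 2 stood apart with 1 and 228 Trac counts. In replicate 1, 11 of the 15 markers had more than 3 counts and Cd247 was at 0, and in replicate 2, 13 did and Cd3g and Cd247 were at 0. Markers of neurons and glia, which a CD4 sort should remove, moved the other way, with sums of 2897 to 3604, 3677 to 4292 and 971 to 2031 CPM in CD4cre, CD4IKK1 and CD4NIK libraries. Myeloid and dendritic, kidney and erythroid markers were also low in CD4IKK1, where the erythroid ones overlapped with CD4NIK. In the same order of groups, 11 myeloid and dendritic cell markers summed to 351 to 1528, 80.1 to 199 and 528 to 815 CPM, 11 markers of kidney tubule and endothelium to 27.4 to 106, 11.1 to 23.7 and 35.5 to 134 CPM, and 5 erythroid markers to 2078 to 2680, 532 to 1612 and 1177 to 8183 CPM. Of the targeted genes, Chuk was at 15.3 to 26.5 CPM in CD4IKK1 and 16.3 to 33.2 CPM in CD4cre libraries, and Map3k14 was at 12.8 to 30.8 CPM in CD4NIK and 14.7 to 19.6 CPM in CD4cre libraries. These levels overlap, and counts over a whole gene do not show whether the floxed exons are missing, so the groups are named here by their labels.

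All 6 genes were highest in the libraries labelled CD4NIK and had their lowest mean in those labelled CD4IKK1, with CD4cre between. In 5 of the 6 the libraries of the 3 groups followed this order with no overlap at all, against 4.44% of the 16546 genes tested. G3bp1 was the exception, since its CD4cre and CD4IKK1 libraries overlapped. Because the members were picked for the outer groups, this share describes them and is no test. In bulk samples a lower level can come from fewer cells of a type or from less RNA per cell, and the data cannot tell these apart.

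Smpdl3a showed the widest gap. Its level was 35.8, 28.5 and 18.7 CPM in the CD4cre libraries, 6.33, 9.79, 13.7, 8.99 and 9.51 CPM in the CD4IKK1 libraries and 138, 145 and 224 CPM in the CD4NIK libraries. The lowest CD4NIK library was 10.1 times the highest CD4IKK1 library, and CD4cre lay apart from both. Tor1aip1 followed the same order, with 29.6, 21.9 and 27.6 CPM in CD4cre, 8.66, 9.63, 6.73, 7.80 and 13.2 CPM in CD4IKK1 and 116, 78.6 and 119 CPM in CD4NIK. Its lowest CD4NIK library was 5.98 times the highest CD4IKK1 library.

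Rgs3 was the member with the tightest CD4IKK1 libraries among the 3 with the fewest counts. It was at 25.2, 34.6 and 30.7 CPM in CD4cre, at 11.2, 10.2, 12.04, 11.6 and 8.70 CPM in CD4IKK1 and at 64.4, 123 and 83.8 CPM in CD4NIK. Relative to the mean its CD4NIK libraries spread more than those of the other members, with 90.3 ± 29.8 CPM (SD, n = 3) and a coefficient of variation of 32.9%, yet the lowest of them was still 5.35 times the highest CD4IKK1 library.

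The members with the highest counts separated the groups by smaller factors. G3bp1 was at 130, 122 and 104 CPM in CD4cre, at 91.9, 104, 113, 95.5 and 123 CPM in CD4IKK1 and at 347, 431 and 424 CPM in CD4NIK, so that only the CD4NIK libraries stood off. Mbnl1 was at 309, 213 and 185 CPM in CD4cre, at 150, 144, 163, 130 and 155 CPM in CD4IKK1 and at 591, 817 and 862 CPM in CD4NIK. H13 was at 126, 115 and 99.5 CPM in CD4cre, at 62.7, 79.8, 87.8, 84.6 and 88.2 CPM in CD4IKK1 and at 265, 288 and 327 CPM in CD4NIK. The lowest CD4NIK library was 2.82, 3.63 and 3.01 times the highest CD4IKK1 library for G3bp1, Mbnl1 and H13, and for Mbnl1 and H13 the CD4cre libraries lay between without overlap.

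**Figure D1:**
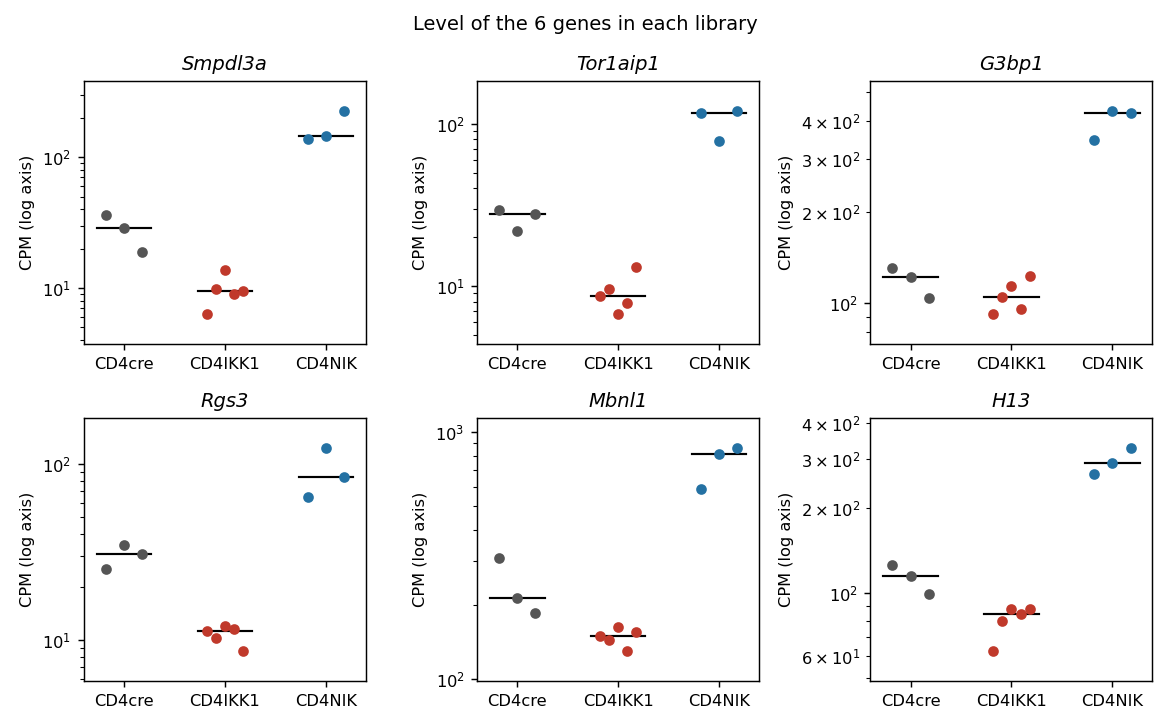
Level of the 6 genes in each library in CPM on a log axis, by group; points are libraries and the line is the group's median. CD4NIK libraries lie above all others in every panel, and CD4cre and CD4IKK1 libraries overlap for G3bp1 alone.

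The library with almost no T cell receptor transcripts did not stand apart for these genes. They were chosen in part for a small spread within the CD4IKK1 libraries, this one included, so this is a description and no test. CD4IKK1 replicate 1, with 1 Trac count, held 98 counts of Smpdl3a, 134 of Tor1aip1, 1422 of G3bp1, 174 of Rgs3, 2320 of Mbnl1 and 971 of H13. Its CPM was the lowest of the 5 CD4IKK1 libraries for Smpdl3a, G3bp1 and H13 and lay within the range of the other 4 for Tor1aip1, Rgs3 and Mbnl1.

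In the fit of all 11 libraries the log2 fold change of CD4NIK against CD4IKK1 was 4.13 ± 0.28 (SE) for Smpdl3a, 3.50 ± 0.24 for Tor1aip1, 3.07 ± 0.23 for Rgs3, 2.35 ± 0.17 for Mbnl1, 1.92 ± 0.14 for G3bp1 and 1.86 ± 0.14 for H13. The members thus differ widely in the size of the gap. Non-overlap was also common here, with 24.4% of the tested genes higher in CD4NIK than in CD4IKK1 libraries without overlap, and 18.5% higher at an FDR under 0.05 and more than 2-fold. As many as 1223 genes had a ratio of lowest CD4NIK to highest CD4IKK1 library at least as wide as that of G3bp1, and 290 had one at least as wide as that of Smpdl3a. Measured against the spread within groups, the difference ranked between 58 for Mbnl1 and 118 for Rgs3 among the 16546 genes. Other genes therefore separate these groups as sharply, and the 6 are a selection from them. In this comparison 14 of 15 T cell markers, 4 of 9 tested myeloid and dendritic cell markers, 3 of 10 tested kidney tubule and endothelial markers and 4 of 5 erythroid markers were higher in CD4NIK past the same threshold, and 10 of 13 neuron and glia markers were lower. The part of the cell types other than T cells in the gap of the 6 genes was not tested.

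The CD4cre libraries were not used to choose the genes, but the CD4NIK and the CD4IKK1 libraries were, for their levels and their small spread. Neither comparison below is therefore independent of that choice, and both share the CD4cre libraries. Against CD4cre all 6 genes were higher in CD4NIK at an FDR under 0.05 and more than 2-fold, where 10.4% of 15209 tested genes were. The group means differed 6.1-fold for Smpdl3a (169 ± 48.0 against 27.7 ± 8.59 CPM, SD, n = 3 each), with a log2 fold change of 2.60 ± 0.31 and an adjusted p of 0.00329 in edgeR's quasi-likelihood test. For Tor1aip1 it was 1.98 ± 0.25 (edgeR, adjusted p = 0.00407), for G3bp1 1.74 ± 0.18 (adjusted p = 0.00230) and for Mbnl1 1.67 ± 0.25 (adjusted p = 0.00638). Rgs3 rose by 1.56 ± 0.28 (edgeR, adjusted p = 0.0112) and H13 by 1.36 ± 0.18 (adjusted p = 0.00439). G3bp1, whose CD4cre and CD4IKK1 libraries overlapped, thus had the third largest log2 fold change of the 6 here. The 6 calls held without any 1 library. T cell markers moved with this result, 12 of 15 of them being higher in CD4NIK and none lower, while 8 of the 12 tested neuron and glia markers were lower. With library sizes replaced by the summed T cell markers 0 of the 6 genes were past the threshold, while 10599 of the 15209 genes were, 10490 of them lower. With the mean log2 CPM of the neuron and glia markers as a covariate 0 of the 6 were past it. Their log2 fold changes lay between 0.89 for Rgs3 and 2.40 for Tor1aip1. Of all 15209 genes 45 were past it, against 2649 without the covariate.

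In the libraries labelled CD4IKK1 the 6 log2 fold changes against CD4cre were negative, but none was past the threshold, and the libraries overlapped for G3bp1. The log2 fold change was -1.52 ± 0.32 for Smpdl3a (edgeR, adjusted p = 0.0898), -1.52 ± 0.29 for Tor1aip1 (adjusted p = 0.0850) and -1.49 ± 0.24 for Rgs3 (adjusted p = 0.0551). It was smaller for Mbnl1 with -0.67 ± 0.16 (edgeR, adjusted p = 0.0940), for H13 with -0.49 ± 0.15 (adjusted p = 0.154) and for G3bp1 with -0.17 ± 0.14 (adjusted p = 0.602). Over all genes edgeR called 0 of 15653 tested (0%), while 16.6% had an unadjusted p under 0.05 and DESeq2 called 552. At an unadjusted p under 0.05, 5 of the 6 genes were lower, all but G3bp1, where 8.91% of all tested genes were, a count that describes genes picked in part for their CD4IKK1 levels and is no test of them. DESeq2 called Smpdl3a, Tor1aip1 and Rgs3, and so did edgeR with all 11 libraries in one fit. The 3 members with the fewest counts therefore carried the larger differences from CD4cre, and G3bp1 the smallest. The 15 T cell markers lay lower too, their median log2 fold change being -2.04, as did the markers of myeloid and dendritic cells (median -2.17 over 8 tested), of kidney tubule and endothelium (-1.93 over 8) and of erythroid cells (-1.19 over 5). Of these lists 0 genes passed the threshold, and the part of these cell types in the values of the 6 genes was not tested. Without CD4IKK1 replicates 1 and 2 the log2 fold changes of the 6 genes lay between -1.51 and -0.10, and 0 of the 6 were past the threshold. In that fit 36 of 15091 genes were past it, all of them lower.

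**Figure D2:**
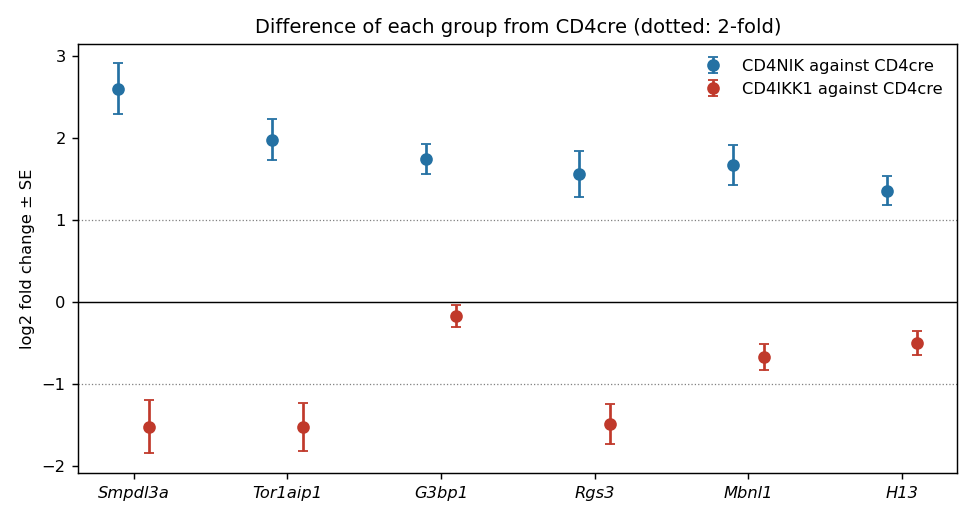
Log2 fold change against CD4cre with its SE (edgeR) for CD4NIK and CD4IKK1 libraries. All 6 genes lie above the 2-fold line in CD4NIK, and Smpdl3a, Tor1aip1 and Rgs3 lie below it in CD4IKK1, where no adjusted p was under 0.05.

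Relative to T cell receptor transcripts the order of the groups was lost. Per 1000 Trac counts, Smpdl3a had 91.5, 101 and 106 counts in CD4cre and 107, 72.4 and 90.7 counts in CD4NIK libraries, values that overlap fully although the CPM differed 6.1-fold. In CD4IKK1 replicates 3, 4 and 5 it had 100, 134 and 88.4, within reach of both. Replicates 1 and 2, with few Trac counts to divide by, had 98000 and 820. Relative to the sum of the 15 T cell markers Smpdl3a was higher in CD4NIK, with 13 to 18.2 counts per 1000 marker counts against 11.4 to 11.7 in CD4cre, without overlap. CD4IKK1 replicates 3 to 5, with 9.99 to 16.5 on that scale, overlapped with both. The fit of CD4NIK against CD4cre scaled to these markers gave a log2 fold change of 0.47 ± 0.37 (edgeR, adjusted p = 0.271). Per 1000 Trac counts Tor1aip1 also overlapped between all groups, with 75.5, 77.3 and 157 in CD4cre, 90.3, 39.3 and 48.2 in CD4NIK and 49.3, 117 and 122 in CD4IKK1 replicates 3 to 5.

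The other 4 genes were lower relative to Trac in CD4NIK than in either group, without overlap. Rgs3 had 50.2, 61.3 and 33.9 counts per 1000 Trac in CD4NIK, 64.4, 122 and 174 in CD4cre and 88.5, 173 and 80.8 in CD4IKK1 replicates 3 to 5. G3bp1 had 271, 215 and 172 in CD4NIK, 332, 432 and 589 in CD4cre and 833, 1427 and 1144 in CD4IKK1 replicates 3 to 5. The order for G3bp1 was thus the reverse of that in CPM, while Rgs3 overlapped between CD4cre and CD4IKK1. Relative to the sum of the 15 T cell markers Rgs3 did not separate the groups, with 6.79 to 11 counts per 1000 marker counts in CD4NIK, 8.25 to 19.2 in CD4cre and 8.81 to 17.6 in CD4IKK1 replicates 3 to 5, whereas G3bp1, Mbnl1 and H13 were lower in CD4NIK on that scale too, G3bp1 only just. Mbnl1 had 461, 408 and 349 in CD4NIK, 789, 752 and 1049 in CD4cre and 1197, 1947 and 1444 in CD4IKK1 replicates 3 to 5. H13 had 207, 144 and 132 in CD4NIK, 322, 407 and 564 in CD4cre and 645, 1264 and 820 in CD4IKK1 replicates 3 to 5. CD4IKK1 replicate 2 was higher than replicates 3 to 5 for each gene, with 808 for Tor1aip1, 855 for Rgs3, 8750 for G3bp1, 12097 for Mbnl1 and 6684 for H13. This direction was that of most genes, since 75.1% of the tested genes were lower in CD4NIK than in CD4IKK1 and 75.6% lower than in CD4cre without overlap once divided by Trac, and 0.713% and 0.822% were higher. In turn 3 of the 6 genes (G3bp1, Mbnl1 and H13) were higher in CD4IKK1 than in CD4cre, where 45.9% of genes were, and with or without replicates 1 and 2 the same 3 genes were. Smpdl3a and Tor1aip1 are among the genes that did not follow the majority, and their share of Trac counts was not separable between CD4cre and CD4NIK.

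**Figure D3:**
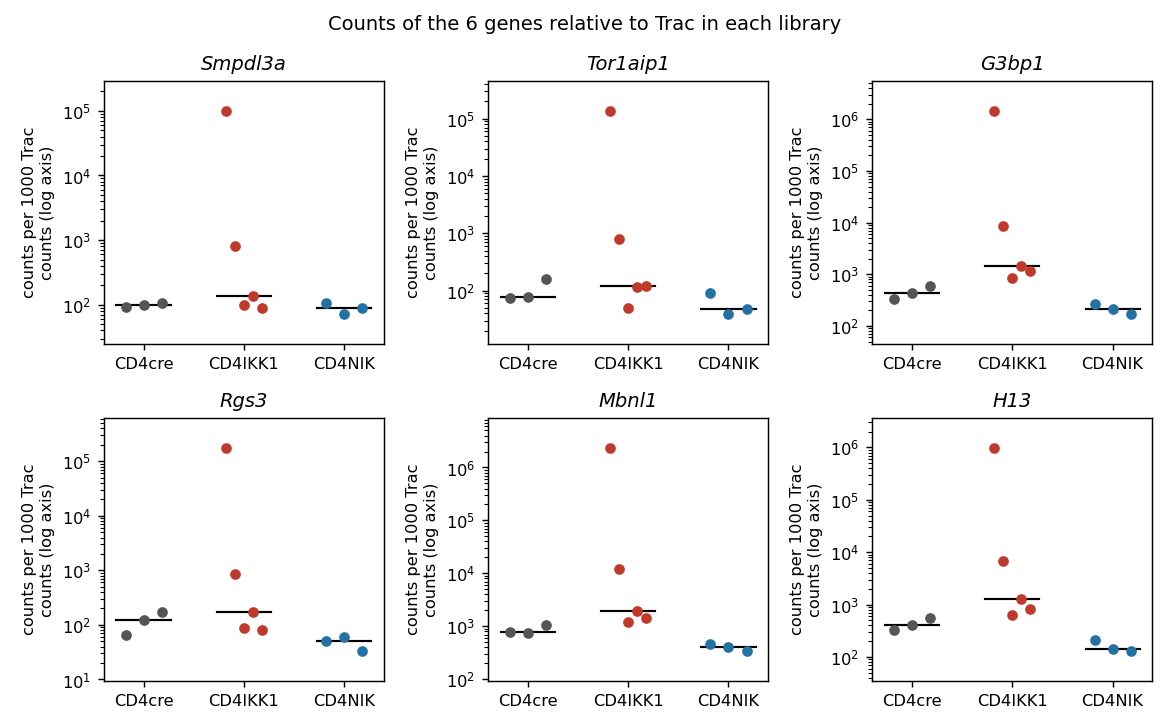
Estimated counts of each gene per 1000 Trac counts in each library on a log axis, by group; points are libraries and the line is the group's median. The highest 2 CD4IKK1 points in each panel are the libraries with 1 and 228 Trac counts, and CD4NIK libraries lie below CD4cre for G3bp1, Rgs3, Mbnl1 and H13.

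The closest relative of a member did not always move with it. A ratio of 2 genes within a library does not depend on library size or scaling, so the members were set against their relatives in this way. Such a ratio can still vary with the mix of cell types in a library, which was not tested. The members were also chosen for their gap between CD4NIK and CD4IKK1, so a gap in a ratio between these groups is described and is no test. G3bp1 had 0.461, 0.337 and 0.328 counts for each count of its paralogue G3bp2 in CD4cre, 0.236 to 0.331 in the 5 CD4IKK1 libraries with a median of 0.293, and 1.07, 1.84 and 1.42 in CD4NIK. The ratio was higher in every CD4NIK library than in any other and overlapped between CD4cre and CD4IKK1. G3bp2 itself was at 320 ± 40.0 CPM in CD4cre (SD, n = 3), 363 ± 24.4 CPM in CD4IKK1 (n = 5) and 286 ± 47.0 CPM in CD4NIK (n = 3), with a log2 fold change of -0.18 ± 0.20 for CD4NIK against CD4cre (edgeR, adjusted p = 0.563).

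Mbnl2, the paralogue of Mbnl1, had the opposite order. It was at 263 ± 13.7 CPM in CD4cre, 350 ± 42.6 CPM in CD4IKK1 and 172 ± 42.9 CPM in CD4NIK, and fell by 1.02 ± 0.17 on the log2 scale in CD4NIK against CD4IKK1 (edgeR, adjusted p = 0.000467). Mbnl1 had 0.673 to 1.25 counts for each Mbnl2 count in CD4cre, 0.355 to 0.513 in CD4IKK1 and 2.69 to 6.34 in CD4NIK, so that the 3 groups did not overlap. Mbnl3, the muscleblind gene with the fewest counts, was higher in CD4NIK than in CD4IKK1 (log2 fold change 2.56 ± 0.56, edgeR, adjusted p = 0.00284), and its ratio to Mbnl1 overlapped in all groups.

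Tor1aip2, which encodes the torsin activator LULL1, was at 53.1 ± 8.26 CPM in CD4cre, 36.5 ± 6.18 CPM in CD4IKK1 and 70.5 ± 15.6 CPM in CD4NIK and was not past the 2-fold threshold in any comparison. It was still higher in CD4NIK than in CD4IKK1 libraries without overlap (log2 fold change 0.95 ± 0.20, edgeR, adjusted p = 0.00246). How reads from the overlap of the 2 genes were divided is not known. Tor1aip1 had 0.464 to 0.555 counts for each Tor1aip2 count in CD4cre, 0.187 to 0.292 in CD4IKK1 and 0.957 to 2.19 in CD4NIK, again without overlap. Smpdl3b, the other acid sphingomyelinase-like phosphodiesterase, had few counts and rose in CD4NIK against CD4IKK1 (1.64 ± 0.55, edgeR, adjusted p = 0.0304). The ratio of Smpdl3a to Smpdl3b was 3.87 to 7.77 in CD4cre, 1.3 to 3.5 in CD4IKK1 and 6.01 to 24.8 in CD4NIK, where CD4NIK and CD4cre overlapped. Rgs1, a regulator of G protein signalling of activated lymphocytes, had a larger log2 fold change than Rgs3, with 41 ± 44 CPM in CD4IKK1 and 2322 ± 824 CPM in CD4NIK (5.84 ± 1.47, edgeR, adjusted p = 0.0103). CD4IKK1 replicates 1 and 2 held only 4 and 11 Rgs1 counts, and the difference between the 2 genes was not tested. Sppl2a, an intramembrane protease related to H13, had at most 123 counts in a library and passed no threshold, and its ratio to H13 overlapped in all groups, as did that of Rgs1 to Rgs3.

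**Figure D4:**
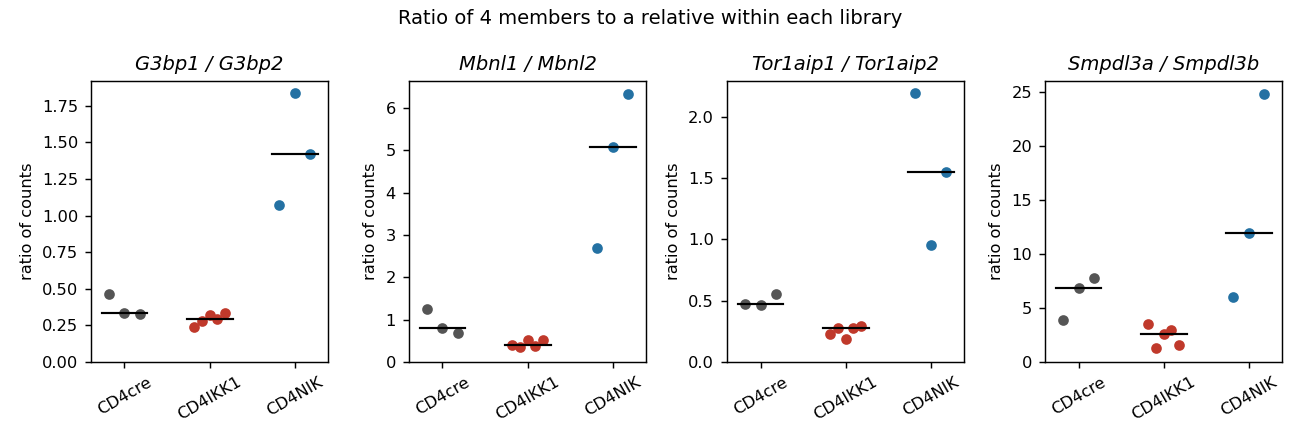
Counts of 4 members divided by the counts of a relative in the same library, by group, on linear axes from 0; points are libraries and the line is the group's median. The ratios to G3bp2, Mbnl2 and Tor1aip2 are higher in all CD4NIK libraries than in all others, and the ratio to Smpdl3b overlaps between CD4NIK and CD4cre.

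For the wider families, 89 genes in 6 lists were followed, 1 list for each member. In CD4NIK against CD4cre, 21 of the 86 tested were higher and 2 lower at an FDR under 0.05 and more than 2-fold, where 10.4% and 6.99% of all genes were, with a median log2 fold change of 0.50 beside -0.02 over all genes. In CD4NIK against CD4IKK1, 35 of 87 were higher and 6 lower, where 18.5% and 14.8% of all genes were, with a median of 0.87 beside -0.06. In CD4IKK1 against CD4cre 0 of 85 passed in edgeR and 21 had an unadjusted p under 0.05, where 16.6% of all genes had, and DESeq2 called 6, where it called 552 of 11585 genes. The count for CD4NIK against CD4cre depended on single libraries, being 11 without CD4NIK replicate 3, 14 without CD4cre replicate 2, and 15 without CD4cre replicate 3 or CD4NIK replicate 2.

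Among torsins and proteins of the nuclear envelope, the partners of Tor1aip1, 4 of 17 genes were higher in CD4NIK than in CD4cre and 0 lower. These were Lmnb1, which encodes lamin B1 (2.46 ± 0.25), Emd, which encodes emerin (1.90 ± 0.40), Tmpo, which encodes LAP2 (1.66 ± 0.37), and the torsin Tor4a (1.46 ± 0.30). Against CD4IKK1, 8 of 17 were higher and 0 lower, with Tmpo at 3.09 ± 0.46 and Lemd2, another lamina-associated membrane protein, at 1.49 ± 0.33. Of the 15 stress granule genes listed with G3bp1, 4 were higher in CD4NIK than in CD4cre and 0 lower. They were Nufip2, which encodes an RNA-binding partner of other granule proteins (5.55 ± 0.57), Eif2s1, the translation factor subunit whose phosphorylation precedes granule assembly (1.70 ± 0.26), Atxn2l (1.57 ± 0.31) and Ubap2l (1.41 ± 0.33). The fold change of Nufip2 rests on a low mean of 0.47 CPM in CD4cre, against 22.7 CPM in CD4NIK. Against CD4IKK1, 6 of the 15 were higher and 0 lower.

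Of 15 RGS proteins and G alpha subunits, 4 were higher in CD4NIK than in CD4cre and 1 was lower. The inhibitory subunits on which Rgs3 acts were among the higher ones, Gnai2 with 2.95 ± 0.38 and Gnai3 with 1.93 ± 0.28. The others were Rgs1 with 2.56 ± 0.49 and Rgs16 with 2.54 ± 0.43. The Gq class subunits Gnaq (-0.98 ± 0.24) and Gna11 (-0.87 ± 0.27) lay lower but under the 2-fold threshold. The 1 gene lower past the threshold was Rgs12 with -1.15 ± 0.34. Rgs12 and Gna11 were named after their values were seen. Against CD4IKK1, 8 were higher and 3 lower, among the lower ones the Gq class subunit Gnaq (-1.26 ± 0.19). In the same comparison Gnai2 was higher with 3.62 ± 0.40 and Gnai3 with 2.37 ± 0.25, and no difference between classes of G alpha subunit was tested.

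Of 14 splicing regulators listed with Mbnl1, 5 were higher in CD4NIK than in CD4cre, among them Ptbp3 (2.12 ± 0.36), Hnrnpll, which controls splicing of Cd45 in T cells (1.56 ± 0.29), Elavl1, which encodes HuR (1.38 ± 0.22), and Khdrbs1, which encodes Sam68 (1.08 ± 0.23). Rbfox2, a splicing regulator known from neurons and muscle, was the lower one (-1.58 ± 0.44) and was named after its values were seen. Against CD4IKK1, 7 of the 14 were higher and 2 lower. Of 14 genes of signal peptide processing listed with H13, 3 were higher and 0 lower, namely the translocon subunit Sec61a1 (1.27 ± 0.18), the presenilin Psen2 (2.00 ± 0.29) and the signal peptidase subunit Spcs3 (1.04 ± 0.24). Against CD4IKK1, Sec61a1 and Psen2 (3.41 ± 0.53) of the 14 were higher and 0 lower, where 18.5% and 14.8% of all genes were. Spcs3 was under the 2-fold threshold there with 0.73 ± 0.19. Of 11 tested genes listed with Smpdl3a, 1 was higher in CD4NIK than in CD4cre and 0 lower, where 10.4% and 6.99% of all genes were. It was Sting1, which encodes a sensor of cyclic dinucleotides (2.48 ± 0.34) and belongs neither to the acid sphingomyelinase family nor to the targets of the sterol receptor LXR. In this comparison none of the tested genes of that family, of LXR or of its targets passed. Against CD4IKK1, 4 of 12 tested genes of the list were higher besides 1 lower, namely Sting1 (5.78 ± 0.92), the LXR gene Nr1h2 (1.77 ± 0.33), the sphingomyelinase gene Smpd2 (2.90 ± 0.66) and Smpdl3b, and, as the lower one, the sphingomyelinase gene Smpd3 (-1.56 ± 0.34). All of these log2 fold changes had an adjusted p under 0.05 in edgeR. In the same comparison most T cell markers were higher and most neuron and glia markers lower, as given above. In CD4NIK against CD4cre, scaled to the summed T cell markers, 56 of the related genes passed, 1 of them higher, where 10599 of the 15209 genes passed. With the mean log2 CPM of the neuron and glia markers as a covariate 2 related genes passed there, both higher, where 45 of all genes did.

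**Figure D5:**
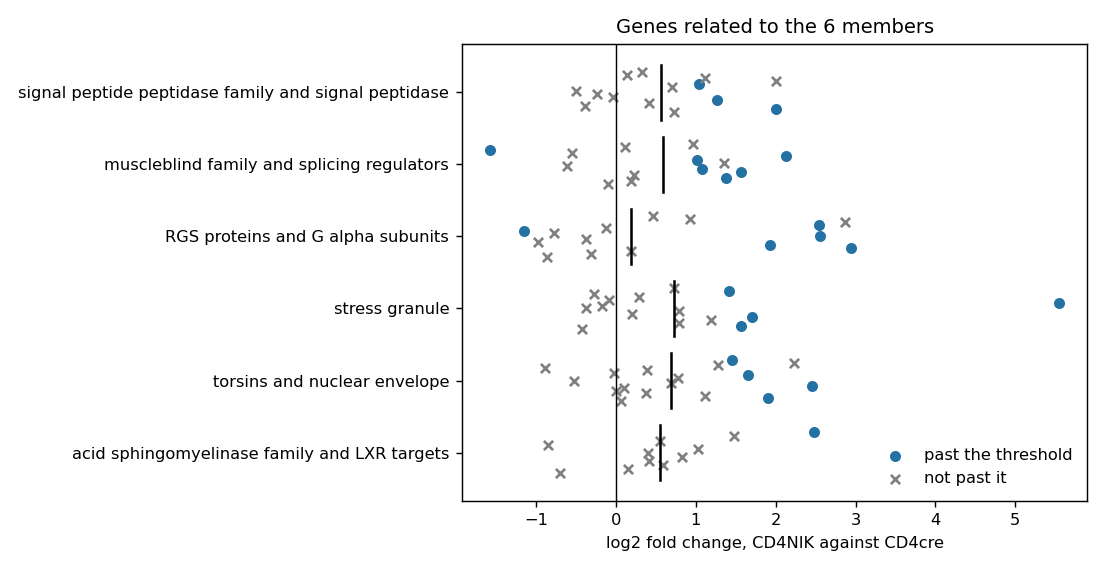
Log2 fold change of CD4NIK against CD4cre for the genes of the 6 related lists; points are genes, filled circles passed an FDR under 0.05 and a 2-fold difference, crosses did not, and the black line is the list's median. Of 86 genes 21 passed above 0 and 2 below.

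To find which genes followed each member most closely, levels in log2 CPM were centred on their mean over the 11 libraries and compared by the root mean square difference with each of 16545 other genes, a description that shares libraries and depth with the choice of the members. For G3bp1 the nearest were Ppp4c, the catalytic subunit of protein phosphatase 4 (0.14 log2 units), Ormdl2, a regulator of sphingolipid synthesis (0.16), and H13 (0.19). For H13 they were Ppp4c (0.16), Dnajc9 (0.16) and Ly6e (0.17). Mbnl1 was followed most closely by Id2, a transcriptional inhibitor (0.17), Hif1a, the oxygen-regulated transcription factor (0.20), and Hspa5, the main chaperone of the endoplasmic reticulum (0.20). G3bp1, H13 and Mbnl1 lay within 0.27 of each other, but other genes lay closer, since Mbnl1 ranked 21 from G3bp1 and 81 from H13.

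Rgs3 was nearest to Maf, a transcription factor of T helper cells (0.29), the integrin subunit Itga4 (0.34) and Irf2bp2 (0.36). Maf was at 22.4 to 30.5 CPM in CD4cre, 8.90 to 14.1 CPM in CD4IKK1 and 38.5 to 104 CPM in CD4NIK libraries. Tor1aip1 was nearest to Cnp (0.32), Serinc3 (0.38) and Hadh (0.38), and Smpdl3a to Slc35d2 (0.39), Rbms1 (0.39) and Trim59 (0.40). The member nearest to Smpdl3a was Tor1aip1 at 0.53, and the one nearest to Rgs3 was Mbnl1 at 0.50. Trac was far from every member, at 2.55 from Smpdl3a, where it ranked 15011 of 16545, and up to 3.19 from G3bp1, where it ranked 16526. This measure grows with the size of the differences between libraries. The group means of Trac stood in the same order as those of the members, at 64.5 CPM in CD4IKK1, 284 CPM in CD4cre and 1918 CPM in CD4NIK, over a range that reached down to the 1 count of CD4IKK1 replicate 1.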

How the data were processed

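The members and the lists of related genes were chosen with earlier results of these data known. Per the study's methods, renal CD4+ T cells were enriched, sorted and sequenced after SMARTer amplification. The authors trimmed reads with Trimmomatic, assigned them with kallisto and deposited estimated counts per gene symbol, neither normalized nor pooled. The methods name GRCm39 and the submitters' processing notes mm10, the kallisto version is not given in the sources used here, and coordinates here are GENCODE's on GRCm39 (93.6% of symbols matched). The table gives no strand or isoform, so how reads shared by overlapping genes were divided is not known.

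Estimated counts were rounded. No 2 of the 11 libraries were identical, and the labels call replicates biological. Each comparison with CD4cre used its own libraries, and CD4NIK against CD4IKK1 used all 11 (R 4.3.3, edgeR 4.0.16, filterByExpr, TMM, robust quasi-likelihood F test, Benjamini-Hochberg over all tested genes). The threshold was an FDR under 0.05 and more than 2-fold, and standard errors came from the F statistic. CPM used TMM factors of 0.899 to 1.05 over the 11 libraries, and log2 CPM a prior count of 2. The genes named are the 6 members, Trac, Chuk, Map3k14, each member's nearest relative (Mbnl2 and Mbnl3 for Mbnl1), the 3 genes closest in profile, markers where a list is described, and at most 4 other genes past the threshold per list and comparison, by p. Rgs12, Gna11, Rbfox2 and Mcts2 fall outside this rule. Counting error is not given as an interval, since PCR copies were not marked. The tests were checked on simulated counts. Alternatives were DESeq2 1.42.0, other factors, filters and scalings, a covariate, a replicate block, other libraries in the fit and leaving out libraries.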

Additional observations from a re-analysis of the deposited data

Results flagged for a closer look

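In the 5 CD4IKK1 libraries, replicate 1 was far from the others in the count relative to Trac for each of the 6 genes, by the gap of the extreme value to its neighbour over the range. It had 98000 counts per 1000 Trac for Smpdl3a, 133896 for Tor1aip1, 1422100 for G3bp1, 174000 for Rgs3, 2319530 for Mbnl1 and 971000 for H13. The divisor in this library was 1 Trac count, which is under the floor of 3 counts, so these values have no usable precision. Of the 12 groups of values examined, the 6 in CPM held no such library, and the genes had been chosen for a small spread within this group. Chance marks about 1 in 20 groups, and the 6 values share 1 divisor and are not independent.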

How the results depend on the processing

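All 6 genes were past the threshold in CD4NIK against CD4cre with other normalization factors, filters and tools and without each library in turn. Scaling to T cell transcripts ended this. Relative to Trac or to the summed T cell markers 0 of the 6 were higher in CD4NIK than in CD4IKK1 without overlap. In CD4NIK against CD4cre 0 were past the threshold scaled to the T cell markers, 2 (both lower) scaled to Trac and 0 with neuron and glia markers as a covariate. These scalings moved the median log2 fold change of all genes to -2.20 (markers) and -2.80 (Trac), to 5.00 and 9.53 in CD4IKK1 against CD4cre and to -7.17 and -12.27 in CD4NIK against CD4IKK1, so values below are to be read against them.

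Scaled to the markers, CD4NIK against CD4cre gave 0.47 for Smpdl3a, which kept its direction, -0.21 for Tor1aip1, -0.43 for G3bp1, -0.68 for Rgs3, -0.48 for Mbnl1 and -0.81 for H13, and scaled to Trac, in the same order, -0.14, -0.80, -1.04, -1.31, -1.09 and -1.42. CD4IKK1 against CD4cre gave, from Smpdl3a to H13, 3.15, 3.48, 4.78, 3.61, 4.50 and 4.32 by markers and 7.63, 8.02, 9.31, 8.18, 9.08 and 8.83 by Trac. CD4NIK against CD4IKK1 gave -2.68, -3.68, -5.21, -4.28, -4.98 and -5.14 by markers and -7.76, -8.82, -10.35, -9.49, -10.17 and -10.25 by Trac. All 6 members thus lay above the median gene in CD4NIK and below it in CD4IKK1. Upper-quartile factors moved that median to -0.30 in CD4NIK against CD4IKK1 and to -0.16 in CD4NIK against CD4cre, with the directions of the 6 members kept.

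In CD4IKK1 against CD4cre, members past the threshold were 3 with DESeq2 (552 of 11585 genes), 1 with a filter of 1 count in any library (48 of 23700), 3 with 10 counts in every library (159 of 10954) and 3 with all 11 libraries in one fit (129 of 16546). Related genes were 6 with DESeq2, 1 with the stricter filter and 1 with all 11 libraries. In CD4NIK against CD4cre the related genes past it were 56 (markers) and 65 (Trac), with 1 higher in each, 2 (covariate) and 11 to 27 leaving out 1 library, where 10599, 12113, 45 and 674 to 3468 of all genes were, and in CD4NIK against CD4IKK1 67, 74 and 0, where 14307, 14965 and 17 of 16546 genes were. The cause was not tested.

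Libraries with the same replicate number did not deviate together (9 pairs, r from -0.089 to 0.077), so they share only a number. With the replicate block 6 members were past the threshold in CD4NIK against CD4cre and 0 in CD4IKK1 against CD4cre, and related genes were 18, 0 and 37. With 3 libraries in 2 of the groups, differences near the threshold depend on single libraries.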

Other observations

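Mcts2, a gene of its own that lies inside H13 on the same strand at chr2:152528955-152529866 (GRCm39), did not follow H13. It was at 20.6, 20.5 and 28.5 CPM in CD4cre, at 44.98, 35.8, 32.3, 21.0 and 31.6 CPM in CD4IKK1 and at 17.5, 10.8 and 8.47 CPM in CD4NIK libraries. CD4NIK libraries were thus below all CD4cre and CD4IKK1 libraries, the opposite of H13. Mcts2 fell by 1.44 ± 0.32 (SE) on the log2 scale in CD4NIK against CD4IKK1 (edgeR, adjusted p = 0.00313). Against CD4cre its log2 fold change was -0.93 ± 0.37 and not past the threshold (edgeR, adjusted p = 0.102). How reads shared by the 2 genes were divided is not known. Mcts2 was picked because it overlaps a member, after its values were seen.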
